A study of Mus musculus with 16 samples.

Results

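The 129 genes described here were each more abundant in every one of the 4 CD4 T cell libraries taken 14 days after a lymphoma transplant than in any of the other 12 libraries of the study. They were chosen from 23479 genes by their measured values, so their day 14 values are a description and carry no test. The rule asked for a mean of at least 10 CPM (counts scaled by each library's gene-assigned reads, as counts per 1e6) at day 14, which 8692 genes met, and for a lowest day 14 value above the highest value elsewhere. The libraries are RNA sequencing of CD4 T cells, the helper and regulatory arm of the T cells, enriched from spleen by negative selection with magnetic beads, which take up the unwanted cells. All mice were C57BL/6. The control group was 5 mice without tumours (day 0), and 7 and 4 mice were taken on day 7 and day 14 after receiving Eµ-Myc lymphoma cells, a transplantable B cell lymphoma in which an immunoglobulin heavy chain enhancer drives the Myc oncogene. The age and sex of the mice, and whether the lymphoma cells came from 1 tumour, are not given in the sources used here, and no untransplanted group was taken at day 14. Each library was taken as 1 mouse.

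The 129 genes were sorted by hand after their values were known, and 35 were given no role. Cytokine or TNF family receptors and genes of JAK-STAT, NF-kappaB or MAP kinase signalling made up 16. Interleukin 2 and its relatives bind receptors that share the common gamma chain, activate the kinases JAK1 and JAK3, and through them the STAT transcription factors. STATs switch on the SOCS family, whose proteins turn the same receptors off, so that SOCS transcripts are often read as a trace of recent cytokine signalling. OX40, 4-1BB and GITR, receptors of the TNF family, are carried by activated and regulatory T cells and signal to NF-kappaB. FOXP3 defines regulatory T cells, which depend on interleukin 2, and c-MAF and PD-1 are carried by follicular helper cells and by other antigen-experienced T cells. None of this background was measured here beyond transcript levels. In bulk libraries, more cells of a type and more RNA per cell cannot be told apart.

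The libraries held 14493764 to 27340070 gene-assigned reads, with group means of 24548914 ± 2544462 for the 5 controls, 21534837 ± 3741219 for the 7 day 7 libraries and 15909844 ± 1205838 (SD) for the 4 day 14 libraries, the shallowest group. Reads outside gene models made up 47.1% to 56.7% of control, 54.6% to 68.0% of day 7 and 54.4% to 69.8% of day 14 libraries. The CD4 T cell markers summed to 3938 to 7050 CPM in controls, 5638 to 8310 CPM at day 7 and 4931 to 6694 CPM at day 14, against at most 17.5 CPM for the CD8 markers in any library. Control libraries 1 and 2 stood apart from the other controls, with S100a8, a neutrophil protein, at 114.6 and 540.3 CPM against at most 7.08 CPM. Y-linked transcripts marked 5 libraries, namely day 7 libraries 6 and 7, control libraries 1 and 2, and library 4 of day 14. Library sizes adjusted by TMM scaling were 0.923 to 0.984 times the totals in controls, 0.937 to 1.04 times at day 7, and 1.18, 0.979, 1.128 and 1.101 times in day 14 libraries 1 to 4. TMM sets sizes by the bulk of genes rather than by total reads, and under it 3 of the 4 day 14 libraries have lower values than with totals.

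The separation between day 14 and the other libraries was narrow for most of the 129 genes. The lowest day 14 value was 1.00 to 2.61 times the highest other value, with a median of 1.07, and 83 genes lay under 1.1 while 14 reached 1.3. The mean at day 14 was 1.13 to 10.1 times the control mean, with a median of 1.81, and 1.098 to 9.13 times the day 7 mean, with a median of 1.56. Both folds were at least 2 for 35 genes. These folds and those below rest on library totals. In the edgeR fit with TMM, the median log2 change at day 14 against control was 0.648, beside 0.119 for all genes. With library totals it was 0.854, beside 0.323 for all genes. The next highest library was a day 7 library for 94 genes, most often day 7 library 2 (35 genes), and a control library for 35. Day 14 library 2 was the lowest of its group for 69 genes, and libraries 3 and 4 were the highest for 44 and 43. With TMM-scaled CPM the rule gave 53 genes, 52 of them among the 129, and with DESeq2's size factors 64, all among the 129. The 50 genes that met it under all 3 scalings are called scaling-stable below. They include Neb, Ttn, Socs3, Cish, Jak3, Il2rb, Il12rb1, Tnfrsf4, Foxp3, Pdcd1 and Cxcr3, but not Stat3, Socs1, Maf, Tnfrsf9, Tnfrsf18, Ikzf4, P2rx7 or Mtor. Without control libraries 1 and 2 the same rule gave 282 genes, and without day 14 library 2 it gave 435.

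**Figure D1:**
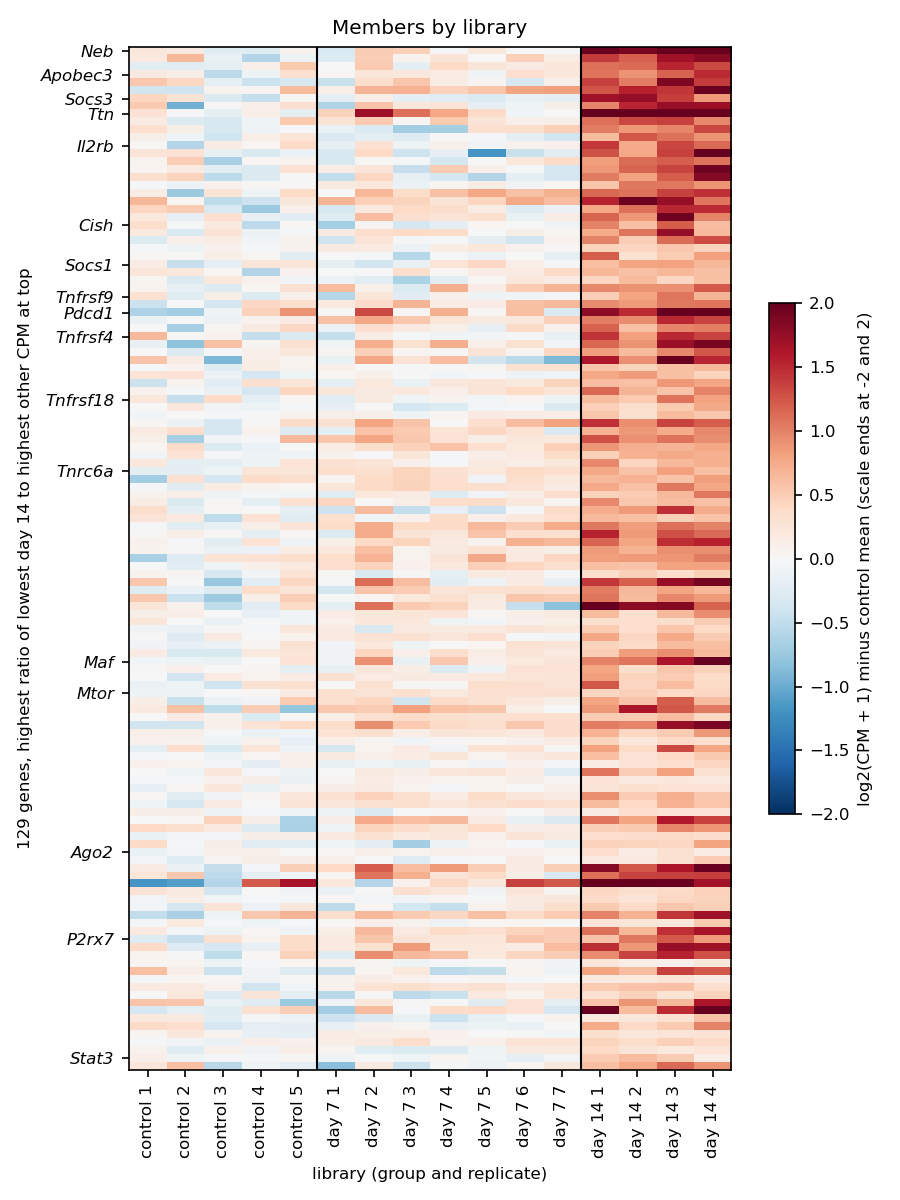
Each row is 1 of the 129 genes, ordered by the ratio of its lowest day 14 to its highest other CPM, and each column is 1 library; colour gives log2(CPM + 1) minus the mean of the 5 control libraries, with the scale ending at -2 and 2. The 4 day 14 columns are the reddest in every row by construction. In most rows the palest of them is close to the reddest other column, with 83 genes at a ratio under 1.1.

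At the edge of the rule, the genes just inside were Shkbp1, Stat3 and E130308A19Rik, all at a ratio of 1.001, and the gene nearest above the CPM minimum was Abhd1 at a mean of 10.1 CPM. Just outside lay Epg5 (ratio 0.999), Gabpb2 (0.999) and Ttll4 (0.998). Socs2, a feedback inhibitor of the same family as Socs3, met the separation at a ratio of 1.296 but averaged 9.36 CPM at day 14 and so fell below the minimum. In all, 107 further genes met the separation but not the minimum. The 129 genes were sorted by hand into 13 roles, which hold 94 of them, after their values were known. Beyond the 33 genes that a naming rule gave, the genes named with values were chosen after their values were seen.

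The promoters of 4 genes are shown first because each carries the letters of a STAT site and the genes are described below: Socs3 and Cish, which are feedback inhibitors, Tnfrsf18, a costimulatory receptor, and Foxp3, a transcription factor. Foxp3 has another window in the table, at a different annotated start, with no match. The windows run from 250 bases before to 50 after the annotated start (RefSeq, GRCm38.p6), read 5′ to 3′ on the gene's strand. Capitals mark the letters TTCNNNGAA, which read the same on both strands.
Socs3 (chr11:117969317-117969616, minus strand): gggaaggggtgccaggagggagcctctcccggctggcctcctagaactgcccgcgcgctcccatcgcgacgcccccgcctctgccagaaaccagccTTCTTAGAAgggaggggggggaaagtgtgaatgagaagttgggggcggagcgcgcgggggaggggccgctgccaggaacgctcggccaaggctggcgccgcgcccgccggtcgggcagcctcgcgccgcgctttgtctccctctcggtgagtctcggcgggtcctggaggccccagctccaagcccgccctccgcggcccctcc
Cish (chr9:107296409-107296708, plus strand): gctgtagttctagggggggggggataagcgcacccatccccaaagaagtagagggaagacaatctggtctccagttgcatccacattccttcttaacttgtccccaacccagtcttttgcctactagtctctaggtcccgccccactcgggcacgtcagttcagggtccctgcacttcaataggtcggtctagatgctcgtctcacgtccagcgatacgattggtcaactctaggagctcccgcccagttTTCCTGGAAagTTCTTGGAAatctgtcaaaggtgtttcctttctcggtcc
Tnfrsf18 (chr4:156026072-156026371, plus strand): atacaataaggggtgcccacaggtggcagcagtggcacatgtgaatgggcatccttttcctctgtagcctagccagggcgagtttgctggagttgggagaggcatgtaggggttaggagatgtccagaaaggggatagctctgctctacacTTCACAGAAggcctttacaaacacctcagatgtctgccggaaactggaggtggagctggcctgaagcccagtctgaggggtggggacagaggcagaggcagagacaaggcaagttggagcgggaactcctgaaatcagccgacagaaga
Foxp3 (chrX:7580233-7580532, plus strand): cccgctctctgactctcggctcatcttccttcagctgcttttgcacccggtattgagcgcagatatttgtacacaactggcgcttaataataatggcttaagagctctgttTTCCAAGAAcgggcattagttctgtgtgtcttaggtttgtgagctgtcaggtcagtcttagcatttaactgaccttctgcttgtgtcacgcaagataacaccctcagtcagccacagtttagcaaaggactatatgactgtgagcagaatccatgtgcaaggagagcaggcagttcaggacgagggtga
The match begins at -154 in Socs3, -99 in Tnfrsf18 and -139 in Foxp3, counted from the start of transcription, while Cish has a pair of matches just after its start. Promoters were on hand for 97 of the 129 genes. The STAT letters were present for 16 of these genes (16.5%), or in 17 of 125 promoters (13.6%), against 8.30% of all 32851 promoters in the table and 8.25% of the 6521 genes that averaged at least 10 CPM at day 14. The other genes with a match include Mtor, Tnfrsf9, Icam1, Acsbg1, Serpina3g, Heg1, Cd82 and Sbno2. Among genes described below, the windows of Socs1, Jak3, Stat3, Pias3, Tnfrsf4, Pdcd1 and Cxcr3 hold none. The AP-1 letters TGANTCA were present for 10.3% of the 97 genes, against 5.43% of the 6521 genes, the kappaB-like letters GGAANNTCC for 8.25% against 5.51%, and the E-box CACGTG for 8.25% against 12.4%. By promoter and against all in the table, the shares were 8% and 7.81% for AP-1, 6.4% and 4.26% for the kappaB-like letters and 6.4% and 7.15% for the E-box. All were read on both strands, and no difference in shares was tested. Each motif was counted separately, so a stretch can count for more than 1. A match describes letters in this window and says nothing of binding.

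Among cytokine receptors and their JAK and STAT partners, 8 of the 129 genes had day 14 means 1.37 to 2.71 times the control means, and 5 of the 8 were scaling-stable. Il2rb stood at 101, 65.9, 111, 102 and 129.9 CPM in control libraries, between 88.9 and 122 CPM at day 7 (median 106 CPM), and at 268, 169.8, 252 and 220.2 CPM at day 14. Il2rb encodes the beta chain shared by the interleukin 2 and interleukin 15 receptors. The lowest day 14 library, library 2, lay clear of the other 12, with a day 14 mean 2.23 times the control mean and 2.21 times the day 7 mean, while control and day 7 libraries overlapped. Control libraries held 185, 134, 131, 157 and 236 CPM of Jak3, day 7 libraries 168 to 238 CPM with a median of 197 CPM, and day 14 libraries 356, 415, 424 and 321 CPM. JAK3 is the kinase bound to the common gamma chain of these receptors. Its day 14 mean was 2.25 times the control mean, and library 4 was the lowest of the day 14 group.

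Values of Il12rb1 were 8.49, 4.18, 9.32, 7.08 and 10.2 CPM in controls, 7.49 to 13.6 CPM at day 7 with a median of 11.9 CPM, and 17.9, 17.2, 21.03 and 22.6 CPM at day 14. Il12rb1 encodes the chain shared by the interleukin 12 and interleukin 23 receptors. The day 14 libraries stood close together, 2.51 times the control mean, and the day 7 libraries lay between, overlapping the controls. Stat3 stood at 246, 211, 218, 218 and 229 CPM in control libraries, between 197 and 232 CPM at day 7 (median 215 CPM), and at 319, 345, 319 and 246 CPM at day 14. STAT3 relays interleukin 6, interleukin 10 and interleukin 21. Its separation was the thinnest of these 8, since day 14 library 4 and control library 1 were both at 246 CPM, and the other 3 day 14 libraries set its mean 1.37 times that of controls.

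The feedback inhibitors were higher at day 14 alongside the receptors. Control libraries held 105, 94.8, 63.3, 55.7 and 78.7 CPM of Socs3, day 7 libraries 63.4 to 84.8 CPM with a median of 67.5 CPM, and day 14 libraries 251, 263, 204 and 142 CPM. SOCS3 blocks JAK kinases at receptors of the interleukin 6 family. The day 14 mean was 2.71 times the control mean and 3.08 times the day 7 mean, the highest folds of the 8, with library 4 lowest and libraries 1 and 2 highest. Values of Cish were 40.97, 31.1, 36.9, 22.03 and 32.6 CPM in controls, 19.7 to 33.4 CPM at day 7 with a median of 30.4 CPM, and 64.6, 48.7, 75.3 and 49.6 CPM at day 14. CISH, induced by STAT5 in lymphocytes, restrains interleukin 2 signalling. Its day 14 libraries fell into a higher pair, 1 and 3, and a lower pair, 2 and 4, and all lay above the rest. Socs1 stood at 15.5, 9.74, 12.1, 16.6 and 16.5 CPM in control libraries, between 10.3 and 18.7 CPM at day 7 (median 13.4 CPM), and at 21.5, 24.7, 24.8 and 22.4 CPM at day 14. Socs1, which inhibits JAK1 and JAK2, had a day 14 mean 1.66 times the control mean, and its separation did not hold with TMM scaling. Pias3, an inhibitor of STAT3, averaged 20.4 ± 2.37 CPM at day 14 and 9.76 ± 1.67 CPM in controls (SD, n = 4 and 5). Socs2, below the CPM minimum, stood at 11.3, 7.73, 8.44 and 9.92 CPM at day 14 and 2.23, 2.58, 4.29, 4.81 and 5.96 CPM in controls.

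**Figure D2:**
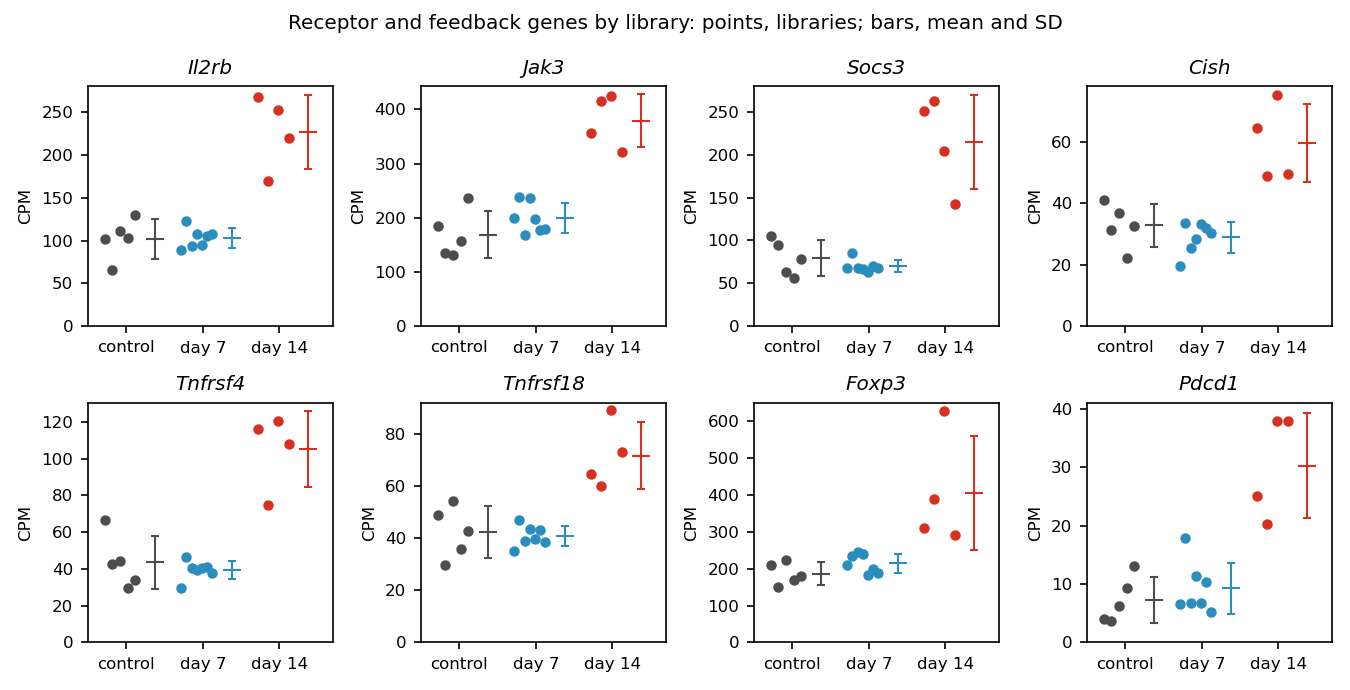
CPM by group (x axis: control, day 7, day 14) for Il2rb, Jak3, Socs3, Cish, Tnfrsf4, Tnfrsf18, Foxp3 and Pdcd1; points are libraries in replicate order and bars give the mean and SD. In every panel the 4 day 14 points lie above the others by the rule, control and day 7 points overlap, and the day 14 spread is widest for Foxp3 (291 to 627 CPM).

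TNF family receptors and genes of NF-kappaB and MAP kinase signalling formed a second group of 8 genes. Their day 14 means were 1.41 to 2.42 times the control means, and 3 were scaling-stable (Tnfrsf4, Map4k1 and Ksr1). Control libraries held 66.4, 42.7, 44.5, 29.8 and 34.1 CPM of Tnfrsf4, day 7 libraries 29.8 to 46.7 CPM with a median of 40.3 CPM, and day 14 libraries 116, 75.01, 121 and 108 CPM. Tnfrsf4 encodes OX40, a costimulatory receptor of activated and regulatory T cells. Its day 14 mean was 2.42 times the control mean, control library 1 was the nearest other library, and day 14 library 2 was the lowest of its group. Values of Tnfrsf18 were 48.8, 29.8, 54.4, 36.001 and 42.8 CPM in controls, 35.1 to 46.9 CPM at day 7 with a median of 39.8 CPM, and 64.6, 59.97, 89.1 and 72.9 CPM at day 14. Tnfrsf18 encodes GITR. Tnfrsf9 stood at 31.2, 20.9, 27.1, 20.6 and 26.8 CPM in control libraries, between 16.5 and 29.7 CPM at day 7 (median 23.9 CPM), and at 35.4, 43.98, 53.9 and 40.6 CPM at day 14. Tnfrsf9 encodes 4-1BB. For both, day 14 library 3 was highest, the day 14 mean was 1.69 and 1.72 times the control mean, and the separation did not hold with TMM scaling.

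Of the kinases, Map4k1 (HPK1, which restrains T cell receptor signalling) averaged 158 ± 13.3 CPM at day 14 and 107 ± 16.5 CPM in controls, and Map3k5 (ASK1, a stress kinase) 142 ± 10.3 CPM at day 14 and 78.7 ± 6.70 CPM in controls. Ksr1, a scaffold of the RAF, MEK and ERK kinases, averaged 92.4 ± 14.4 CPM at day 14 and 49.3 ± 2.48 CPM in controls and had the widest separation of this group, a ratio of 1.266. Map3k8 (TPL2, a kinase below NF-kappaB signalling) averaged 18.5 ± 3.30 CPM at day 14 and 11.2 ± 3.42 CPM in controls, and Nfkbie, an inhibitor of NF-kappaB, 69.6 ± 5.53 CPM at day 14 and 49.2 ± 7.88 CPM in controls (SD, n = 4 and 5 throughout). The last pair had ratios of 1.030 and 1.006, close to the edge.

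Transcription factors of T cell fate and the PD-1 axis made up 5 genes, with day 14 means 1.76 to 4.16 times the control means. Control libraries held 211, 149, 224, 169.8 and 180.4 CPM of Foxp3, day 7 libraries 184 to 245 CPM with a median of 209 CPM, and day 14 libraries 311, 389, 627 and 291 CPM. FOXP3 is the transcription factor of regulatory T cells. All 4 day 14 libraries lay above the rest, but library 3 stood far above the other 3, and the mean was 2.17 times that of controls. Ikzf4, which encodes Eos, a partner of FOXP3, stood at 36.9, 31.5, 49.4 and 32.6 CPM at day 14 and at most 30.3 CPM in controls. Per kilobase of exon, Foxp3 had the highest day 14 level of the 129 genes (88.4 CPM per kb), followed by Tnfrsf4 (76.9), Ddit4 (74.7), Socs3 (74.4), Jak3 (70.8) and Il2rb (53.1).

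Values of Maf were 62.6, 60.1, 59.01, 64.9 and 78.8 CPM in controls, 58.5 to 123 CPM at day 7 with a median of 74.01 CPM, and 129, 136, 204 and 271 CPM at day 14. Maf encodes c-MAF, a transcription factor of follicular helper and other differentiated T cells. Day 14 libraries 3 and 4 were the highest, day 7 library 2 was the nearest other library, and the separation (ratio 1.047) did not hold with TMM scaling although the day 14 mean was 2.84 times the control mean. Pdcd1 stood at 3.95, 3.69, 6.22, 9.39 and 13.2 CPM in control libraries, between 5.18 and 17.9 CPM at day 7 (median 6.69 CPM), and at 25.1, 20.3, 37.9 and 37.96 CPM at day 14. Pdcd1 encodes the inhibitory receptor PD-1. Its day 14 mean was 4.16 times the control mean, with libraries 3 and 4 highest, and its control values ranged widely at a low level. Pdcd1lg2, which encodes the PD-1 ligand PD-L2, averaged 12.04 ± 2.17 CPM at day 14 and 4.45 ± 1.27 CPM in controls (SD, n = 4 and 5) with a ratio of 1.010.

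The widest separation of all belonged to a muscle gene. Control libraries held 49.2, 47.4, 35.3, 35.4 and 44.2 CPM of Neb, day 7 libraries 33.6 to 60.03 CPM with a median of 42.2 CPM, and day 14 libraries 557, 157, 477 and 514 CPM. Neb encodes nebulin, the giant protein that lines the thin filaments of skeletal muscle, and lies at chr2:52136647-52378474 (GRCm38, minus strand). The day 14 mean was 10.1 times the control mean and 9.13 times the day 7 mean, and library 2 held far less than the other day 14 libraries but still 2.612 times the highest other library. Values of Ttn were 117, 93.6, 83.2, 105 and 83.3 CPM in controls, 92.2 to 315 CPM at day 7 with a median of 132 CPM, and 435, 426, 739 and 659 CPM at day 14. Ttn encodes titin, the giant elastic protein of the sarcomere, and lies at chr2:76703980-76982547 (minus strand). Its day 14 mean was 5.85 times the control mean, and day 7 library 2, at 315 CPM, stood closest to the day 14 group. Per kilobase of exon, counted from the highest, Neb ranked 36 and Ttn 91 among the 129 genes, at 16.03 and 4.83 CPM per kb at day 14.

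The 17 markers of muscle other than Neb and Ttn summed to 10.6 to 18.9 CPM in controls, 14.6 to 45.5 CPM at day 7, and 53.4, 11.1, 37.7 and 24.3 CPM in day 14 libraries 1 to 4. Day 14 library 2, the lowest for Neb, was thus within the control range for these markers, and its Neb stood at 157 CPM against at most 49.2 CPM in controls. Day 7 library 3, with a marker sum of 45.5 CPM, had 58.6 CPM of Neb. None of the 17 was at 0 in every library, and Tnnt3, a fast muscle troponin, was the most abundant in day 14 library 1 at 7.29 CPM. Over the 16 markers tested, the median log2 change at day 14 against control was 1.35, with 13 positive, none called by edgeR and 1 higher at an unadjusted p under 0.05. The part of muscle RNA in the Neb and Ttn values was not tested. Of 21 other giant or muscle structural genes on a list, 1 was called by edgeR as higher at day 14 against control and none lower, beside 1.33% of all genes called higher and 1.8% lower. It was Dst, which encodes dystonin, a cytoskeletal linker, at 178 ± 44.3 CPM at day 14 and 61.1 ± 4.38 CPM in controls (SD, n = 4 and 5; log2 change 1.33 ± 0.23 SE, edgeR adjusted p = 0.00972).

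**Figure D3:**
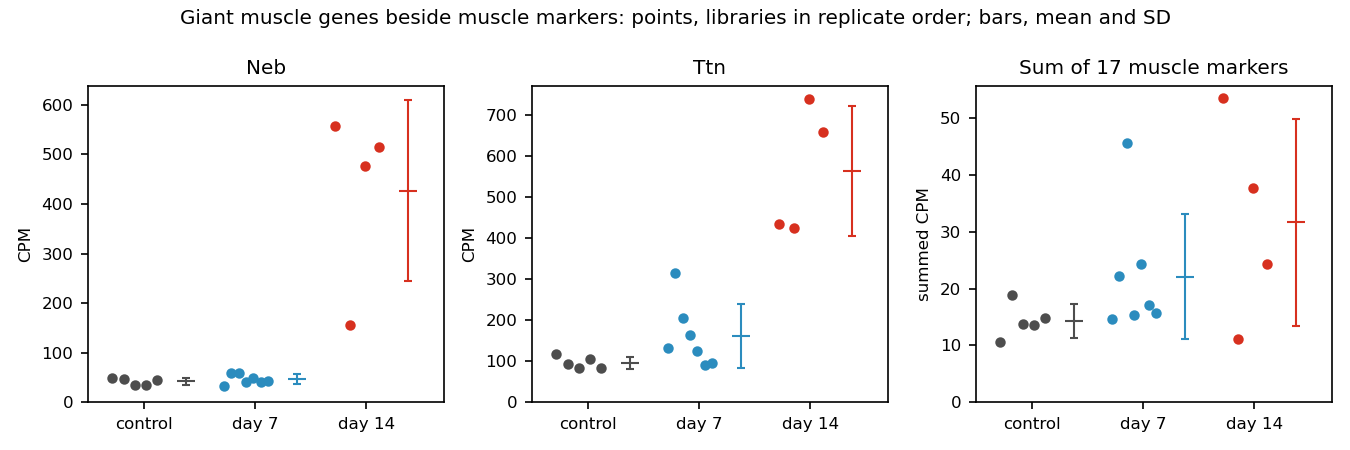
CPM of Neb and of Ttn, and the summed CPM of 17 other muscle markers, by group (x axis: control, day 7, day 14); points are libraries in replicate order and bars give the mean and SD. Day 14 library 2 (the second red point) is low for Neb (157 CPM) and at the control level for the markers (11.1 CPM), while its Ttn (426 CPM) is level with that of library 1.

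Among other cytoskeletal genes, Synpo, which encodes an actin-associated protein first known from neurons and kidney, averaged 28.9 ± 6.86 CPM at day 14 and 8.26 ± 2.28 CPM in controls and was scaling-stable. Myo1e, a membrane-linked myosin, averaged 35.5 ± 9.81 CPM at day 14 and 17.7 ± 3.02 CPM in controls. Nin stood at 320.5, 374, 320.3, 311 and 319 CPM in control libraries, between 307 and 352 CPM at day 7 (median 337 CPM), and at 391, 389.7, 380.5 and 474 CPM at day 14. Nin encodes ninein, a centrosome protein. It was abundant throughout, its day 14 mean was only 1.24 times that of controls, and control library 2 lay just under the lowest day 14 library.

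Other receptors, adhesion molecules and secreted proteins were the largest group, with 20 genes at 1.39 to 3.57 times the control means and 12 of them scaling-stable. Control libraries held 10.4, 6.23, 18.003, 12.1 and 14.5 CPM of Cxcr3, day 7 libraries 10.9 to 19.9 CPM with a median of 14.6 CPM, and day 14 libraries 26.8, 22.4, 40.7 and 45.9 CPM. CXCR3 is a chemokine receptor of Th1 and effector cells. Libraries 3 and 4 were the highest at day 14, and controls and day 7 overlapped. Values of Lamc1 were 17.9, 16.2, 10.4, 8.61 and 9.35 CPM in controls, 8.51 to 18.01 CPM at day 7 with a median of 12.96 CPM, and 32.5, 25.4, 46.2 and 33.4 CPM at day 14. Lamc1 encodes a chain of laminin, a basement membrane protein. Penk stood at 11.6, 3.51, 7.90, 8.42 and 10.01 CPM in control libraries, between 4.79 and 12.01 CPM at day 7 (median 8.55 CPM), and at 16.3, 24.3, 28.5 and 27.7 CPM at day 14. Penk encodes the precursor of enkephalin opioid peptides. Lamc1 and Penk had day 14 means 2.76 and 2.92 times the control means, with control and day 7 libraries overlapping.

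Control libraries held 8.08, 7.83, 11.3, 11.1 and 17.1 CPM of Podnl1, day 7 libraries 11.8 to 19.7 CPM with a median of 17.6 CPM, and day 14 libraries 27.02, 33.2, 30.5 and 44.9 CPM. Podnl1 encodes a small leucine-rich matrix protein. Here the day 7 libraries were on the whole above the controls, though the groups overlapped. Values of P2rx7 were 54.8, 47.4, 81.1, 68.8 and 84.9 CPM in controls, 75.1 to 97.02 CPM at day 7 with a median of 79.1 CPM, and 98.5, 138, 155 and 119 CPM at day 14. P2RX7 is an ion channel opened by extracellular ATP. Its lowest day 14 library, library 1, was level with the highest day 7 library, and the separation did not hold with TMM scaling. Icam1, the adhesion ligand of LFA-1, averaged 45.5 ± 8.26 CPM at day 14 and 22.7 ± 3.93 CPM in controls, and Csf1, the growth factor of macrophages, 18.04 ± 4.41 CPM at day 14 and 7.43 ± 2.80 CPM in controls (SD, n = 4 and 5).

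Of the rest of this group, Heg1, a transmembrane protein known from endothelium, averaged 234 ± 32.05 CPM at day 14 and 135 ± 12.9 CPM in controls, and Sema4d, a semaphorin of T cells, 287 ± 42.4 CPM at day 14 and 197 ± 27.8 CPM in controls. Adam19, a membrane metalloprotease, averaged 137 ± 27.3 CPM at day 14 and 58.2 ± 4.81 CPM in controls. Axl, a receptor kinase better known from macrophages, averaged 12.3 ± 3.26 CPM at day 14 and 5.70 ± 1.96 CPM in controls, and Matn2, a matrix protein, 10.6 ± 3.99 CPM at day 14 and 2.96 ± 1.27 CPM in controls (SD, n = 4 and 5 throughout). Others were Susd3, Tspan5, Ptprv, Cd82, Celsr1, Itih5 and Pear1, with folds over control of 1.39 to 2.46.

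Genes best known from synapses and ion channels numbered 8, at 1.95 to 4.34 times the control means, and 5 were scaling-stable. Syt11 stood at 22.5, 22.3, 22.7, 28.2 and 38.3 CPM in control libraries, between 23.04 and 37.9 CPM at day 7 (median 30.4 CPM), and at 57.4, 58.5, 76.8 and 67.1 CPM at day 14. Syt11 encodes a synaptotagmin, a protein of vesicle traffic. The lowest day 14 library stood at 1.501 times the highest other library, the third highest ratio of the 129, and control library 5 was the nearest. Unc13a, which readies synaptic vesicles for release, had the highest fold of the group, 4.34, from a low level of 2.65 ± 0.874 CPM in controls. The others were Rgs9, Kcnq5 (a potassium channel), Gprin3, Grik5 (a kainate receptor subunit), Aplp1 and Prrt2.

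Both protease inhibitors were scaling-stable. Control libraries held 17.996, 19.7, 14.7, 14.1 and 21.3 CPM of Cst7, day 7 libraries 12.3 to 25.4 CPM with a median of 18.6 CPM, and day 14 libraries 32.6, 40.1, 45.6 and 69.9 CPM. Cst7 encodes cystatin F, an inhibitor of the proteases that activate granzymes. Day 14 library 4 was the highest and the day 14 mean was 2.68 times that of controls. Values of Serpina3g were 11.2, 11.5, 8.20, 7.27 and 8.37 CPM in controls, 3.45 to 12.4 CPM at day 7 with a median of 7.22 CPM, and 23.7, 16.2, 25.3 and 41.6 CPM at day 14. Serpina3g belongs to a cluster of near-identical serine protease inhibitors, so its reads may be shared with its neighbours. Its day 14 mean was 2.87 times that of controls and library 4 was again the highest.

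Of the antiviral genes, Apobec3 had a wide separation. Apobec3 stood at 164, 159.7, 100.5, 134 and 180.2 CPM in control libraries, between 138 and 183 CPM at day 7 (median 168 CPM), and at 306, 269.6, 329.6 and 409 CPM at day 14. APOBEC3 is a cytidine deaminase that restricts retroviruses. The day 14 mean was 2.22 times that of controls and library 4 was the highest. D730005E14Rik, also among the 129, overlaps the start of Apobec3. GENCODE places it on the same strand and RefSeq on the opposite strand. The strand setting of the counting is not given, so reads in the shared stretch cannot be told apart. It averaged 15.8 ± 1.81 CPM at day 14 and 7.27 ± 2.19 CPM in controls. Mx1, an interferon-induced GTPase, averaged 16.2 ± 4.06 CPM at day 14 and 6.85 ± 3.05 CPM in controls (SD, n = 4 and 5).

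The proteins of microRNA silencing, Tnrc6a and Ago2, were abundant and differed by small folds. Control libraries held 319, 315, 335, 424 and 424 CPM of Tnrc6a, day 7 libraries 419 to 491 CPM with a median of 454 CPM, and day 14 libraries 609, 536, 639 and 546 CPM. Tnrc6a encodes GW182, the partner of Argonaute in silencing, and was the gene with the highest day 14 mean. Values of Ago2 were 295, 313, 350.1, 348 and 324 CPM in controls, 335 to 349.8 CPM at day 7 with a median of 345 CPM, and 409, 360.4, 403 and 359.8 CPM at day 14. Its partner Ago2 had a day 14 mean only 1.17 times that of controls, and neither was scaling-stable.

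In growth and metabolism, 6 genes stood at 1.26 to 3.04 times the control means. Mtor stood at 74.98, 75.2, 80.2, 82.97 and 89.8 CPM in control libraries, between 92.2 and 102 CPM at day 7 (median 100 CPM), and at 108, 113, 106 and 108 CPM at day 14. mTOR is the kinase at the centre of growth control. The 4 day 14 libraries lay close together, every day 7 library lay above every control, and the order did not hold with TMM scaling. Ddit4, which encodes REDD1, an inhibitor of mTOR induced by stress, stood at 12.8, 13.6, 19.8, 72.3 and 96.8 CPM in control libraries, between 19.8 and 79.7 with a median of 35.7 CPM at day 7, and at 170.2, 132, 123 and 99.03 CPM at day 14. Its controls fell into a low set (1 to 3) and a high pair (4 and 5), and the lowest day 14 library was level with the highest control. Acsbg1, an acyl-CoA synthetase, averaged 24.98 ± 3.96 CPM at day 14 and 10.03 ± 2.01 CPM in controls, and Abcc1, an efflux pump, 76.99 ± 12.9 CPM at day 14 and 48.9 ± 4.34 CPM in controls (SD, n = 4 and 5). Slc41a1, a magnesium transporter, and Mthfd1l, an enzyme of mitochondrial folate metabolism, had folds of 1.66 and 1.26.

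Among 10 genes of chromatin and transcription, Pcgf2 had the second highest ratio of all. Control libraries held 5.67, 8.14, 4.25, 2.92 and 4.45 CPM of Pcgf2, day 7 libraries 3.82 to 7.26 CPM with a median of 5.46 CPM, and day 14 libraries 14.4, 12.4, 17.7 and 19.5 CPM. Pcgf2 encodes MEL18, a subunit of Polycomb repressive complex 1. Its counts were low, the day 14 mean was 3.14 times that of controls, and control library 2 was the nearest other library. Cbx6, another Polycomb protein, averaged 55.6 ± 5.25 CPM at day 14 and 34.01 ± 7.38 CPM in controls, and Sbno2 173 ± 22.2 CPM at day 14 and 109.8 ± 21.3 CPM in controls (SD, n = 4 and 5). The others were Med17 (Mediator), Lin37 (the DREAM repressor complex) and the zinc finger genes Zfp120, Zscan12, Zfp862, Zfp266 and Zfp523, at 1.27 to 1.97 times the control means. Zfp862 was matched in GENCODE to Zfp862-ps, a transcribed pseudogene.

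The 6 ubiquitin ligase genes included Rnf157, Fbxl18, Cul9, Anapc4 and Dtx4. Values of Rnf157 were 11.5, 9.70, 6.97, 8.28 and 8.70 CPM in controls, 5.11 to 12.8 CPM at day 7 with a median of 8.08 CPM, and 19.1, 17.1, 18.5 and 24.04 CPM at day 14. Rnf157 had the widest separation of the 6 (ratio 1.337), at 19.7 ± 3.03 CPM at day 14 and 9.03 ± 1.69 CPM in controls (SD, n = 4 and 5).

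Vesicle traffic and glycan processing held 12 genes, of which 4 (Osbpl3, Arl5a, Ndst1 and Neu3) were scaling-stable. Osbpl3, a sterol-binding protein, averaged 38.5 ± 13.1 CPM at day 14 and 15.8 ± 4.61 CPM in controls, and Sec24a, a cargo adaptor of vesicles leaving the endoplasmic reticulum, 159.8 ± 20.5 CPM at day 14 and 104 ± 11.3 CPM in controls (SD, n = 4 and 5). Ston1, an endocytic adaptor, had a high fold (5.16) with an uneven spread, at 72.7, 11.1, 20.9 and 40.1 CPM in day 14 libraries 1 to 4 and at most 11.02 CPM in any other library. The remaining genes, Golga7, Pigt, Cog3, Man2a1, Ergic1, Vps4b, Arl5a, Ndst1 and Neu3, had folds of 1.13 to 1.90.

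The 35 genes given no role stood at 1.201 to 3.49 times the control means, and 7 were scaling-stable. Among them were Hdac6, a cytoplasmic deacetylase (27.8 ± 0.928 CPM at day 14 and 18.04 ± 3.85 CPM in controls), Nf1, a brake on RAS (64.1 ± 13.2 CPM at day 14 and 39.6 ± 2.82 CPM in controls), and Mdfic, a transcriptional regulator (46.005 ± 11.6 CPM at day 14 and 16.2 ± 4.20 CPM in controls). Ttc39c had the highest fold of the 35, at 10.7 ± 2.60 CPM at day 14 and 3.07 ± 1.35 CPM in controls. Nup214, a nuclear pore protein, had one of the smallest, at 217 ± 5.99 CPM at day 14 and 180.3 ± 22.2 CPM in controls (SD, n = 4 and 5 throughout).

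Day 7 against control is the comparison on which the rule set no direction, although it capped both groups below day 14. The cap left out any gene with a control or day 7 value at or above its lowest day 14 value. It can therefore shape the shares of the 129 below, which are descriptions. By edgeR over 18430 genes, none of the 129 was called at day 7 against control, beside 0.0109% of all genes called higher and 0.0% called lower. The smallest adjusted p was 0.0777. At an unadjusted p under 0.05, 23 of the 129 were higher (17.8%), against 8.43% of all genes, and 1 was lower (0.775%), against 12.7%. Of the 8692 genes at or above 10 CPM at day 14, 10.5% were higher and 19.2% lower by that measure. Log2 changes were positive for 92 of the 129 (71.3%) for 56.2% of all genes and for 45.1% of the 8692, with medians of 0.10, 0.066 and -0.03. Without control libraries 1 and 2, 11 of the 129 were higher (8.53%), a share near the 9.34% of all genes, and none was lower beside 3.28%. DESeq2 called 9 of the 129 higher (6.98%) beside 2.71% of all genes.

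The 4 genes with the smallest p were Ptprv, Mtor, Gprin3 and Acsbg1. Ptprv stood at 10.4, 9.07, 9.43, 11.7 and 12.8 CPM in control libraries, between 14.003 and 18.4 CPM at day 7 (median 15.5 CPM), and at 23.01, 19.8, 23.96 and 21.98 CPM at day 14. Ptprv is named for a receptor-type phosphatase, but GENCODE lists it as a processed transcript and not as protein-coding. At day 7 every library lay above every control, with a fitted log2 difference of 0.54 ± 0.14 (SE, edgeR adjusted p = 0.0777), and day 14 lay higher still. Control libraries held 17.4, 19.04, 17.5, 20.1 and 21.5 CPM of Gprin3, day 7 libraries 21.8 to 33.2 CPM with a median of 26.8 CPM, and day 14 libraries 39.6, 37.5, 55.8 and 50.01 CPM. Gprin3, named for its binding to G proteins, had a log2 change of 0.42 ± 0.14 at day 7 (edgeR adjusted p = 0.0936), with the day 7 libraries just above the controls. Mtor changed by 0.25 ± 0.08 (edgeR adjusted p = 0.0918) and Acsbg1 by 0.49 ± 0.16 (edgeR adjusted p = 0.0999). Every day 7 library was above every control for 6 of the 129 (4.65%), against 1.98% of all genes and 3.20% of the 8692, and for 3 of the 129 with TMM-scaled CPM. The 6 were Ptprv, Mtor, Gprin3, Heg1, Sema4d and Zfp523. None had every day 7 library below every control, against 0.477% of all genes and 0.840% of the 8692.

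The day 7 values are given here by role, and differences between roles were not tested. The 8 cytokine receptor and JAK-STAT genes had a median log2 change of -0.03 between day 7 and control, with Cish at -0.22 ± 0.15, Socs3 at -0.22 ± 0.16 and Il2rb at -0.04 ± 0.14 (SE), but Il12rb1 at 0.50 ± 0.20, Pias3 at 0.39 ± 0.20 and Jak3 at 0.21 ± 0.15. None of the 8 was called, and Il12rb1 alone was higher at an unadjusted p under 0.05. The 8 genes of the TNF receptor and kinase group had a median of 0.097, 5 of them positive and 2 (Map4k1 and Map3k5) higher at an unadjusted p under 0.05, while the receptors were at -0.18 ± 0.15 for Tnfrsf4, -0.14 ± 0.15 for Tnfrsf9 and -0.10 ± 0.14 for Tnfrsf18. The 5 fate and PD-1 genes were all positive, with a median of 0.26, from 0.16 ± 0.17 for Foxp3 to 0.48 ± 0.24 for Pdcd1lg2, and none was called (edgeR adjusted p of 0.265 to 0.665). Of the muscle genes, Ttn stood at 0.70 ± 0.26 (edgeR adjusted p = 0.119) and Neb at 0.10 ± 0.20 (edgeR adjusted p = 0.833).

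**Figure D4:**
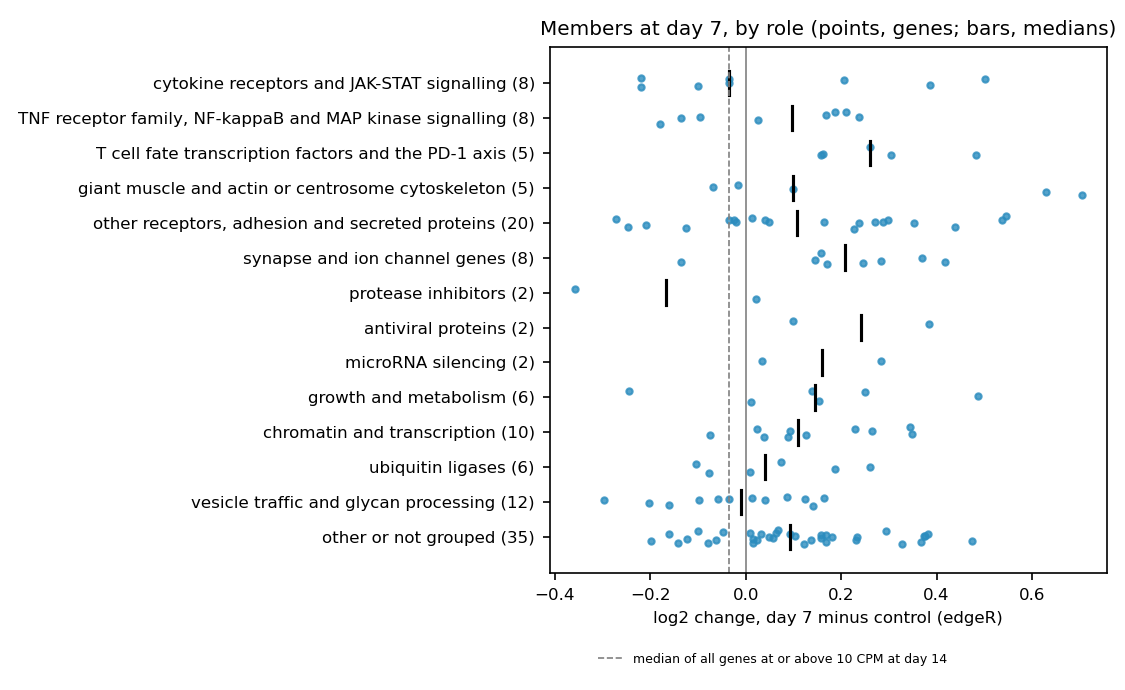
Log2 change between day 7 and control (x axis, edgeR) for each of the 129 genes (points), grouped by role (y axis, with the number of genes); black bars are medians, the solid line is 0 and the dashed line the median of all 8692 genes at or above 10 CPM at day 14 (-0.03). The fate and PD-1 genes lie to the right of 0 and the cytokine receptor genes on both sides of it.

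The day 14 comparison with control could be tested for genes of the same pathways that are not among the 129, by lists of known genes (1.33% of all genes were higher and 1.8% lower). These lists, and that of giant genes above, were chosen with earlier results of these data known. Their calls are therefore not independent of these data. Of 17 cytokine receptor and signalling genes, 1 rose and none fell. It was Il10ra, a chain of the interleukin 10 receptor, at 62.9 ± 19.7 CPM at day 14 and 27.4 ± 4.45 CPM in controls (SD, n = 4 and 5; log2 change 0.97 ± 0.19 SE, edgeR adjusted p = 0.0153). Stat5a and Stat5b, the STATs of interleukin 2, did not pass. Stat5a averaged 106 ± 2.29 CPM at day 14 and 125 ± 35.03 CPM in controls (edgeR adjusted p = 0.145), and Stat5b 284 ± 18.5 CPM at day 14 and 266 ± 26.4 CPM in controls (edgeR adjusted p = 0.566). Of 13 regulatory T cell genes other than Foxp3, Ikzf4, Tnfrsf18 and Tnfrsf9, 4 rose and none fell. Nt5e, which encodes the ectonucleotidase CD73, was at 87.8 ± 21.6 CPM at day 14 and 32.6 ± 7.74 CPM in controls (SD, n = 4 and 5; log2 change 1.21 ± 0.22 SE, edgeR adjusted p = 0.0102). Ikzf2, which encodes Helios, was at 233 ± 65.3 CPM at day 14 and 107 ± 15.4 CPM in controls (SD, n = 4 and 5; log2 change 0.92 ± 0.20 SE, edgeR adjusted p = 0.0248). Il2ra, the alpha chain of the interleukin 2 receptor, did not pass (log2 change 0.45, edgeR adjusted p = 0.101).

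Of 14 follicular helper genes other than Pdcd1 and Maf, 4 rose and none fell, among them Slamf6, a receptor of lymphocyte contacts, at 224 ± 39.4 CPM at day 14 and 101 ± 21.9 CPM in controls (SD, n = 4 and 5; log2 change 0.93 ± 0.14 SE, edgeR adjusted p = 0.00535), and Tnfsf8, the ligand of CD30, at 52.5 ± 14.1 CPM at day 14 and 22.7 ± 2.81 CPM in controls (SD, n = 4 and 5; log2 change 1.00 ± 0.20 SE, edgeR adjusted p = 0.0176). Among these 4 was also Cxcr5, the follicle homing receptor, at 64.7 ± 21.7 CPM at day 14 and 19.5 ± 6.18 CPM in controls (SD, n = 4 and 5; log2 change 1.52 ± 0.31 SE, edgeR adjusted p = 0.0186). It was not among the 129, because day 7 library 2 held 51.1 CPM and the lowest day 14 library 45.7 CPM. The lists share genes, so a gene can count in more than 1. Of 12 activation and costimulation receptors outside the 129, Tnfsf8, already counted above, and Slamf1 rose. Slamf1 was at 62.5 ± 14.6 CPM at day 14 and 30.997 ± 5.94 CPM in controls (SD, n = 4 and 5; log2 change 0.80 ± 0.18 SE, edgeR adjusted p = 0.028). By edgeR no gene was called among 15 inhibitory receptor genes other than Pdcd1, where 5 were higher and 3 lower at an unadjusted p under 0.05 and DESeq2 called 4 higher and 1 lower. None was called among 15 Th1 and cytotoxic genes (1 higher and 1 lower unadjusted, 1 lower by DESeq2), 20 T cell receptor signalling genes (2 and 3 unadjusted, 1 higher by DESeq2) or 18 mitosis genes (none unadjusted or by DESeq2). The share of all genes at an unadjusted p under 0.05 was not counted at day 14. Unadjusted counts, here and for the marker lists, thus have no share to be set against. DESeq2's counts over all genes are given in the last section. Of 22 genes of adhesion and migration outside the 129, 2 rose (Cxcr5, already counted above, and Itgae). Ccr7, the lymph node homing receptor, fell, at 233 ± 62.3 CPM at day 14 and 407 ± 154 CPM in controls (SD, n = 4 and 5; log2 change -1.01 ± 0.26 SE, edgeR adjusted p = 0.0418). Of 16 nuclear-retained and host-gene noncoding RNAs, Kcnq1ot1, an imprinted antisense transcript, rose and none fell, at 565 ± 127 CPM at day 14 and 313 ± 53.7 CPM in controls (SD, n = 4 and 5; log2 change 0.65 ± 0.17 SE, edgeR adjusted p = 0.0444). With a fit to the day 14 and control libraries alone only 4 genes in all were higher, and of the 10 genes outside the 129 given with a fold and adjusted p as called, Dst alone kept its call.

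No gene of the other-cell marker lists, which leave out Neb and Ttn, was among the 129, but the rule itself barred many of them. In day 14 libraries the summed CD8, platelet and erythroid markers reached at most 16.9, 21.8 and 21.4 CPM. Few of these genes could therefore meet the minimum of 10 CPM, and their absence says little. Neutrophil markers summed to 17.2 to 2142 CPM in controls, 1.13 to 35.4 CPM at day 7 and 19.8 to 1711 CPM at day 14, and the highest day 14 value was that of library 4. Macrophage and monocyte markers summed to 42.1 to 1163 CPM in controls, 30.7 to 87.1 CPM at day 7 and 71.3 to 511 CPM at day 14, plasma cell markers to 112 to 642 CPM, 90.5 to 232 CPM and 86.3 to 256 CPM, and B cell markers to 13.7 to 81.8 CPM, 15.3 to 33.7 CPM and 19.4 to 45.2 CPM. Stroma and endothelium markers, whose cells also make Lamc1 and Heg1, summed to 149 to 225 CPM in controls, 223 to 276 CPM at day 7 and 189 to 252 CPM at day 14, most of it Pecam1. The 9 others summed to 3.84 to 18.5 CPM in controls, 6.30 to 26.2 CPM at day 7 and 39.4, 8.38, 24.3 and 36.6 CPM in day 14 libraries 1 to 4. Over the 10 genes the median log2 change at day 14 against control was 1.37, with 8 positive, none called by edgeR and 3 higher at an unadjusted p under 0.05. The medians were negative for the neutrophil (-4.86), macrophage and monocyte (-1.04), B cell (-1.15) and plasma cell (-0.86) markers. By edgeR, 3 of 9 neutrophil and 1 of 10 B cell markers were called lower, beside 1.8% of all genes. Against its list's median, 1 of 5 plasma cell markers was called higher, beside 1.33% of all genes. Platelet markers had a positive median (0.513), with 4 of 5 positive and none called. The part of these cells in the values of the 129 genes was not tested.

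Together the 129 genes summed to 6382 to 7110 CPM in controls, 7029 to 7977 CPM at day 7, and 11618, 10440, 12517 and 11783 CPM in day 14 libraries 1 to 4. Without Neb and Ttn the sums were 6241 to 6983 CPM in controls, 6863 to 7602 CPM at day 7 and 9857 to 11302 CPM at day 14. Day 14 libraries 1, 3 and 4 had 62.3% to 69.8% of reads outside gene models, above every control. Library 2, at 54.4%, was within the control range, and day 7 library 3 stood at 68.0%. Because each gene was chosen to be highest at day 14, the order of the sums follows from the rule, and the part of this share in the values was not tested.

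**Figure D5:**
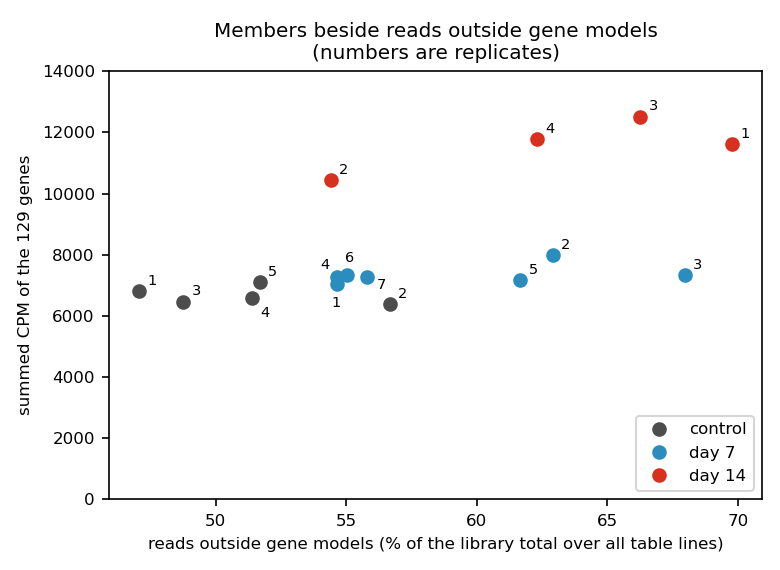
Summed CPM of the 129 genes (y axis, from 0) against the share of reads outside gene models (x axis, percent of the library total over all table lines) for each library, with replicate numbers beside the points. Day 14 library 2 (54.4%, 10440 CPM) and day 7 library 3 (68.0%, 7318 CPM) are the day 14 library with the lowest share and the day 7 library with the highest; that all 4 day 14 sums lie above the 12 others follows from how the genes were chosen.

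All 129 genes were found in the annotation (GENCODE, GRCm38), 3 by an older symbol. Their gene bodies had a median length of 30.5 kb and their exons 5.59 kb, against 25.4 kb and 4.88 kb for the 8505 other annotated genes at or above 10 CPM at day 14. Genes over 100 kb made up 18.6% of the 129 (24 genes) and 11.9% of the others. Chromosome 11 held the most, 14 genes (10.9%, against 8.44% of the others). Another annotated gene overlaps 69 of the 129, and for 57 the overlap includes the opposite strand, as for Foxp3 and Neb. These overlaps are of whole gene bodies, introns included. Reads that the counting set aside as ambiguous made up 0.177% to 0.374% of each library. The annotation and strand setting of the counting are not given. How reads were assigned where exons overlap can therefore not be told.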

How the data were processed

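RNA was sequenced from splenic CD4 T cells of 16 mice. The deposited file gives raw counts of reads for 23479 genes. Its 5 closing lines, which name no gene, were left out of library sizes and tests; 1 of them, for reads outside gene models, takes 47.1% to 69.8% of each library. HTSeq 0.6.1, cutadapt 1.8.1 and bcl2fastq 2.20.0.422 appear in the submitters' processing notes, with the build mm10. Strand setting, read layout, annotation and aligner are not given in the sources used here.

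CPM values were computed from the counts with the sum over gene rows as library size. The members and lists were chosen with earlier results of these data known. Groups and replicate numbers came from the labels, and each library was taken as 1 mouse because the design counts mice. The test was edgeR's quasi-likelihood F test (edgeR 4.0.16 with limma 3.58.1 under R 4.3.3) on 1 model of the 16 libraries, after filterByExpr and TMM. P-values were adjusted by Benjamini-Hochberg over 18430 genes (threshold 0.05), and a standard error is |log2 change| over the root of F. The test was checked on simulated counts. DESeq2 1.42.0 was an alternative, beside other scalings, filters, a replicate block, a term for libraries with Y-linked transcripts and leaving out libraries. Gene lengths came from GENCODE's annotation of GRCm38, and promoters from RefSeq.

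Genes were named by rule: the 10 highest ratios, the 8 highest day 14 means (both without predicted genes), up to 3 members of each list, the 4 smallest p at day 7, the genes at the rule's edges, and a panel of 10. Some genes' own values are not reported here. Members were never tested at day 14 against other groups. Figures were drawn with Matplotlib 3.10.9, and tables made with pandas 2.3.3 and NumPy 2.4.6 (Python 3.11.15).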

Additional observations from a re-analysis of the deposited data

Results flagged for a closer look

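Of 384 groups of libraries checked (127 of the 129 genes and Socs2 in 3 groups each), 21 held a library far from the rest. That share is near the 1 in 20 that chance gives, so no single case below can be told from chance. At day 14, library 4 was apart and high for Nin (474 CPM, next 391), Ergic1 (64.7, next 51.2), Zfp266 (88.8, next 79.8) and Pias3 (23.9, next 19.7). Library 1 was high for Trp53i11 (94.1 CPM, next 73.9) and low for Zdhhc2 (10.3, next 12.4), and library 3 was high for Myo1e (50.2, next 32.3). At day 7, library 2 was high for Socs3 (84.8 CPM, next 70.6), Osbpl3 (21.1, next 13.5) and Map3k5 (119.6, next 97.4) and low for Lin37 (24.7, next 34.6). Library 3 was low for Arl5a (33.4 CPM, next 43.9) and Ergic1 (22.6, next 32.0), and library 1 for Zfp862 (4.25, next 6.86) and Anapc4 (40.1, next 45.6). In controls, library 2 was high for Nin (374 CPM, next 320.5), Narf (44.7, next 35.7), Cdk16 (58.8, next 52.0) and Tspan5 (20.5, next 17.4). Library 3 was high for Akap12 (26.7 CPM, next 22.8) and library 5 low for Arl5a (42.6, next 50.9).

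The reads outside gene models, which no comparison used, made up 69.8%, 66.3% and 62.3% of day 14 libraries 1, 3 and 4, above the highest control at 56.7%. Their origin was not tested.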

How the results depend on the processing

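The number of genes meeting the rule (129) was 53 with TMM, 64 with DESeq2's size factors and 282 without control libraries 1 and 2, and 130 to 435 with 1 library left out; 435 was without day 14 library 2, and 201 without library 1. For day 7 against control, 2 genes were higher and none lower. The higher count was 6 with the replicate block, 218 with the term for Y-linked transcripts, 0 without control libraries 1 and 2, 499 by DESeq2 and 0 to 429 with 1 library left out (429 without control library 5). The lower count was 1 in a fit to the 2 groups alone, 29 with the block, 570 with the Y-linked term, 1104 by DESeq2 and 0 to 1026 with 1 library left out. For day 14 against control, 246 genes were higher, and 699 with library totals, 4 in a fit to the 2 groups, 25 with the block, 456 without control libraries 1 and 2, 852 by DESeq2 and 42 to 487 with 1 library left out. The 331 lower genes became 100 with library totals, 210 without the filter, 0 in the 2-group fit, 21 with the block, 542 with the Y-linked term, 699 by DESeq2 and 18 to 999 with 1 library left out.

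Of the 129 genes, 23 were higher at day 7 at an unadjusted p under 0.05, 11 without control libraries 1 and 2 and 15 to 32 with 1 library left out. The lower count (1) was 0 with library totals and without control libraries 1 and 2, and 0 to 3 with 1 left out. Every day 7 library lay above every control for 6 genes, 3 with TMM, 13 without control libraries 1 and 2 and 6 to 14 with 1 left out; below, for 0, and 0 to 1. The median log2 change at day 14 (0.648) was 0.854 with library totals and 0.590 to 0.685 with 1 left out, and at day 7 (0.10) 0.078 to 0.163. Causes were not tested. The replicate numbers did not pair the libraries: of 13 same-number pairs across groups 2 correlated over 0.1 (r from -0.31 to 0.31), and 1 of 14 libraries correlated best with its own number. Over the 10 genes outside the 129 given as called and 250 comparisons, 56 lost the call (15 of them Kcnq1ot1) and none changed direction. Depth was lowest at day 14, and counting error is widest for genes near 10 CPM.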
